A study of Homo sapiens with 8 samples.

Results

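The ERK output and feedback genes are 10 rows of the count table, taken by name. They are the ETS transcription factors ETV1, ETV4 and ETV5, the phosphatases DUSP4, DUSP5 and DUSP6, and the inhibitors SPRY2, SPRY4, SPRED1 and SPRED2. All 10 were found among the 59385 gene symbols of the table, and all 10 were among the 16228 genes that passed the filter on low counts. They were chosen by their place in the ERK pathway with measured values of these same libraries in view. The polysomal knockdown fold change of ETV4 was among those values, and which others were used is not recorded. Every value of these genes is therefore given as a description, and the adjusted p-values, which come from a fit across all tested genes, are printed to place the genes in that fit and carry no support from the choice.

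The cells were IHCF, 1 line of immortalized human cardiac fibroblasts, into which a lentivirus had brought a hairpin that targets EIF4G2 (knockdown) or one with no target (scramble). EIF4G2 resembles the initiation scaffold EIF4G1 but lacks its binding site for the cap-binding protein eIF4E. All cells, the scramble controls included, were starved of serum for at least 6 h and then kept with TGF-beta for 24 h. Total RNA and RNA bound to polysomes (mRNAs carrying several ribosomes) were sequenced from each, which gives 4 groups of 2 libraries. The design text speaks of triplicates, and 2 libraries a group were analysed here. The question put to these libraries was which mRNAs depend on EIF4G2 for their level or their place in polysomes. No second hairpin and no rescue is named in the labels, so effects of losing EIF4G2 and other effects of that hairpin cannot be told apart. The labels call the replicates biological but do not say that they came from separate cultures, so the spread behind each p-value is that of these libraries and may be technical.

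ERK is the last kinase of the RAS-RAF-MEK cascade that growth factor receptors start. When it is active, cells transcribe a small set of genes that report its activity, among them the PEA3-group factors ETV1, ETV4 and ETV5, and a set that damps it. The damping genes act at separate steps: DUSP4, DUSP5 and DUSP6 remove phosphate from ERK itself, Sprouty proteins (SPRY2, SPRY4) interfere with signalling from receptors to RAS and RAF, and SPRED1 and SPRED2 bring the RAS inactivator neurofibromin (NF1) to the membrane. In fibroblasts the cascade answers to FGF, PDGF and EGF family ligands, and TGF-beta can also feed into it. The mRNAs of several of these genes are short-lived.

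Totals ran from 18043714 to 24590030 counts per library. The leading principal component took 78.0% of the variance of log2 CPM and split the fractions. The next (7.90%) placed knockdown polysome replicate 1 at 83.0 and all other libraries between −32.6 and 2.46, and results that lean on that library are given without it as well. Mitochondrial transcripts took 7.12% of scramble polysome replicate 1 and 14.5% to 17.5% of the other polysome libraries, and their part in the results was not tested. EIF4G2, the targeted gene, had 793.0 and 784.5 CPM (counts scaled to library size) with scramble against 293.1 and 326.9 CPM with knockdown in total RNA, and 874.6 and 876.3 CPM against 243.8 and 334.3 CPM in polysomal RNA. It was thus at 39.3% (edgeR adjusted p = 0.0504) and 33.0% (edgeR adjusted p = 0.0276) of its scramble level, with no overlap. The polysomal call was lost without either knockdown total library, either scramble polysome library or knockdown polysome replicate 1 (edgeR adjusted p from 0.102 to 0.224), with log2 fold changes of −1.66 to −1.42. DESeq2 called EIF4G2 in both fractions (adjusted p = 4.05e-10 and 2.97e-14). Of the 12 fibroblast markers, 6 were at or above 1 CPM in every library. COL1A1 (884.0 to 4168 CPM), THY1 (199.1 to 360.2 CPM) and VIM (1092 to 5747 CPM) were high. COL1A2 (40.0 to 297.5 CPM), PDGFRB (15.9 to 41.4 CPM) and LUM (1.87 to 9.51 CPM) were lower. COL3A1 (0.810 to 51.5 CPM), PDGFRA (0.271 to 2.16 CPM), DDR2 (0.594 to 4.77 CPM) and POSTN (0.337 to 5.18 CPM) fell below 1 CPM in places. DCN and FAP did not exceed 0.433 and 0.334 CPM in any library. Cardiomyocyte markers summed to at most 1.15 CPM and leukocyte markers to at most 1.54 CPM. Endothelial markers summed to 7.38 to 14.9 CPM, with TEK at 3.23 to 9.91 CPM and PECAM1 at 2.01 to 5.73 CPM. The epithelial list summed to 3125 to 3197 CPM in scramble and 2236 to 2267 CPM in knockdown polysome libraries, nearly all of it KRT8 and KRT18, while EPCAM and CDH1 stayed at or below 2.37 and 0.165 CPM. The part of that shift in the polysomal values below was not tested.

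Start-site windows from RefSeq (GRCh38.p14, 250 bases before to 50 after a transcript start) were at hand for 6 of the 10 genes, ETV1, DUSP6, SPRY2, SPRY4, SPRED1 and SPRED2, and not for ETV4, ETV5, DUSP4 or DUSP5. Those of SPRY4 and DUSP6 are shown because each of these feedback genes has 1 listed start, as SPRED1 also has. The pair also differs in the polysome association described below, with SPRY4 low and DUSP6 near the middle of all genes. Both are printed 5′ to 3′ on the minus strand, at chr5:142324198-142324497 for SPRY4 and chr12:89352452-89352751 for DUSP6. Capitals mark the ETS-type core GGAAG, or CTTCC where it lies on the opposite strand, and the GC box GGGCGG.
SPRY4: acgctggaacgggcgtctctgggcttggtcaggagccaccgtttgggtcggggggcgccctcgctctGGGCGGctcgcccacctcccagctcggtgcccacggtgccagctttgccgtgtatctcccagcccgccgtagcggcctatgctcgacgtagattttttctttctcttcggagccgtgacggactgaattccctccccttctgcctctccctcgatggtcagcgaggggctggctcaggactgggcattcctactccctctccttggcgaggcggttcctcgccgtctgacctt
DUSP6: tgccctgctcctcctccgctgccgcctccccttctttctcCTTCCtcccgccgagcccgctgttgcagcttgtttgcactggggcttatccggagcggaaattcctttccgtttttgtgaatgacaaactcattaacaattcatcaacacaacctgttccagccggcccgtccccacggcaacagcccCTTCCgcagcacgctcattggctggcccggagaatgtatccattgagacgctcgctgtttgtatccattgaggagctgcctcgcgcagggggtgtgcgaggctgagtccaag
The SPRY4 window held 1 GC box, 183 bases before the start, and 0 ETS-type cores. The DUSP6 window held 2 ETS-type cores, 210 and 62 bases before the start on the opposite strand, and 0 GC boxes. On either strand, GGAAG was present in 71.9% and GGGCGG in 45.0% of all 35116 RefSeq windows of this length, and in 13 and 9 of the 14 windows of the 6 genes. The AP-1 site TGANTCA was in 1 of these 14 windows and in 7.71% of all windows. A match is a stretch of letters and not a measured site.

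Per kilobase of all annotated exons of a gene, the phosphatases DUSP4 and DUSP5 had the highest levels of the set in total RNA, followed by SPRED2. That scale compares genes only roughly, since it counts exons that the transcripts made may lack. SPRY4 is divided by 6565 nt, where the transcript used for its length below has 2379 nt, so its place could be higher. The order given here holds for that scale only. DUSP4 led the scramble total libraries at 13.7 ± 0.532 CPM per kb (SD, n = 2). DUSP5 (9.67 ± 0.128), SPRED2 (7.87 ± 0.165), DUSP6 (5.42 ± 0.182), ETV5 (4.21 ± 0.0187) and SPRY2 (4.04 ± 0.0499 CPM per kb) followed. ETV4 (3.04 ± 0.0541), SPRED1 (2.89 ± 0.0969) and SPRY4 (2.62 ± 0.0583) came next, and ETV1 was last at 0.577 ± 0.102 CPM per kb. No 2 neighbours in that order overlapped between libraries. In knockdown total libraries the order was the same for the top 4, SPRY2 and ETV5 changed places, DUSP6 overlapped with SPRY2, and SPRED1 overlapped with SPRY4.

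**Figure D1:**
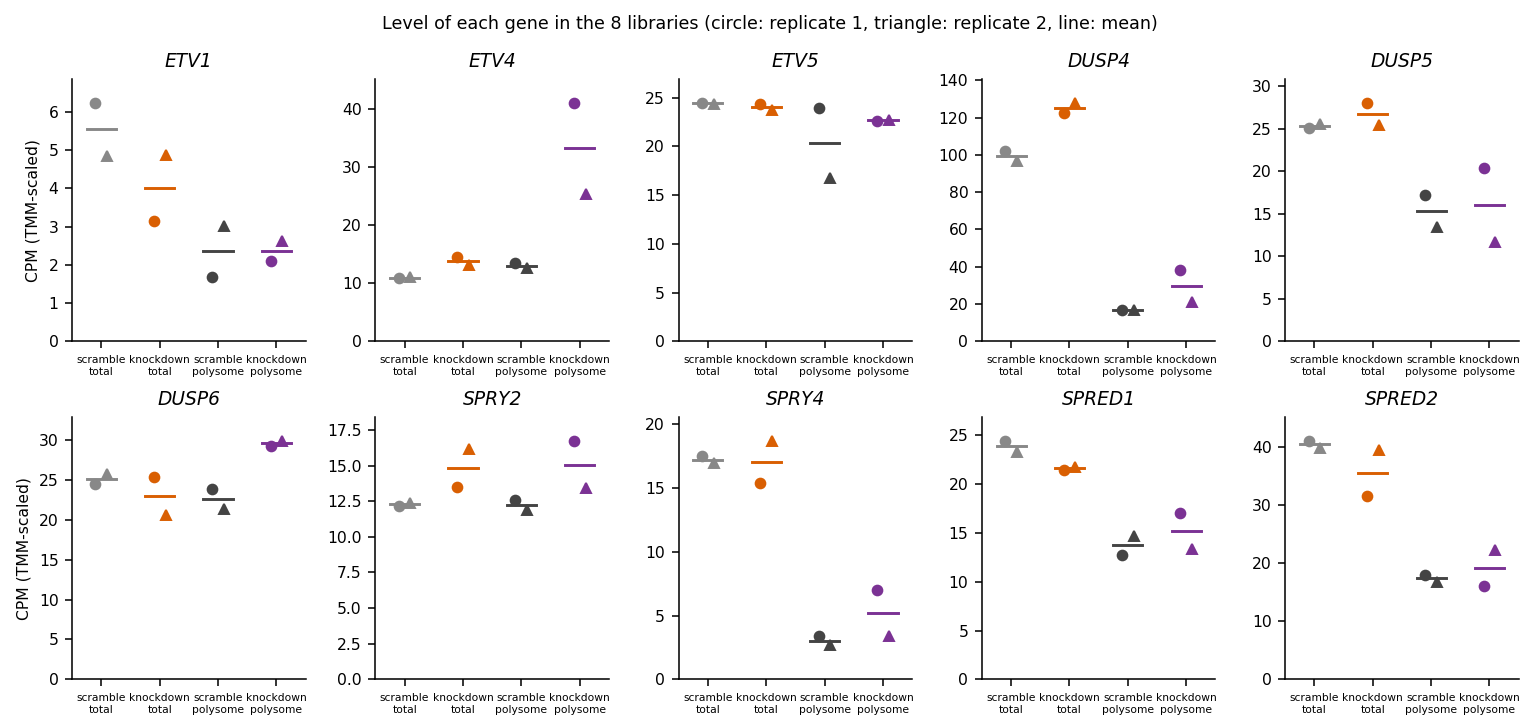
Level of each of the 10 genes in CPM of the TMM-scaled library (vertical axis, starting at 0, with its own range in each panel), by group; circles are replicate 1, triangles replicate 2 and lines the mean of 2 libraries. ETV4 in knockdown polysome libraries (41.0 and 25.3 CPM) lies above its other 6 libraries, and DUSP4 and SPRY4 are far lower in polysomal than in total libraries.

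In total RNA the set showed no common direction on EIF4G2 knockdown. In such bulk libraries, fewer cells expressing a gene and less of its RNA per cell cannot be told apart. ETV4, DUSP4 and SPRY2 were higher in both knockdown than in both scramble libraries, ETV5, SPRED1 and SPRED2 were lower in both, and ETV1, DUSP5, DUSP6 and SPRY4 overlapped. Over all tested genes 24.8% were higher and 23.1% lower without overlap. The 10 genes had a median log2 fold change of −0.017, beside 0.019 over all tested genes, and ran from −0.47 (ETV1) to 0.33 (DUSP4). Several of these values leaned on 1 knockdown total library, of which replicate 1 lay at −88.4 on the leading principal component and the other total libraries at −115 to −112. The log2 fold change of ETV1 was −0.19 without knockdown total replicate 1 and −0.82 without replicate 2. That of SPRED2 was −0.038 and −0.36, and that of SPRY2 0.39 and 0.13, in the same order. edgeR called 0 of the 10 (0% of all tested genes were called). An unadjusted edgeR p under 0.05 was held by 0 of the 10, beside 598 of the 16228 tested genes. DESeq2, which called 0.16% of the tested genes, called 0 as well.

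DUSP4, a nuclear phosphatase that ERK itself induces, was the most abundant of the set in total RNA. It had 102 and 96.7 CPM with scramble against 122.4 and 128.0 CPM with knockdown in total RNA, a log2 fold change of 0.33 ± 0.22 (SE). ETV4, an ETS factor of growth and branching programmes, had 10.8 and 11.1 CPM with scramble against 14.5 and 13.0 CPM with knockdown in total RNA (0.33 ± 0.23). Both knockdown libraries lay above both scramble libraries for each gene, but neither difference passed the test. SPRY2, the Sprouty protein induced by many receptor kinases, had 12.2 and 12.4 CPM with scramble against 13.5 and 16.2 CPM with knockdown in total RNA (0.27 ± 0.20). SPRED2 had 41.1 and 39.9 CPM against 31.7 and 39.6 CPM, and SPRED1 24.4 and 23.3 CPM against 21.4 and 21.8 CPM, with log2 fold changes of −0.19 ± 0.19 and −0.14 ± 0.19. The knockdown total libraries differed from each other by more than the hairpins did for SPRED2.

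In polysomal RNA, ETV4 stood out: its level in knockdown cells was 2.55 times that in scramble cells, and DUSP4 and SPRY4 followed at 1.76 and 1.73 times. All 10 fitted log2 fold changes lay at or above 0, with a median of 0.23 and ETV1 lowest at 0.0039, where 45.9% of all tested genes lay above 0 and their median was −0.014. Since the genes were picked with such results in view, that shared direction is no independent evidence. edgeR called 0 of the 10 beside 0.0123% of all tested genes. An unadjusted edgeR p under 0.05 was held by 3 of the 10 (ETV4, DUSP4 and SPRY4), beside 2152 of the 16228 tested genes. DESeq2 called ETV4 alone, beside 1.4% of all tested genes (0.579% higher).

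ETV4 had 13.4 and 12.6 CPM with scramble against 41.0 and 25.3 CPM with knockdown in polysomal RNA, from 212 to 608 counts. Both knockdown libraries were above both scramble libraries, and the higher of them is the library that stands apart. The log2 fold change was 1.35 ± 0.24 (edgeR adjusted p = 0.157, DESeq2 adjusted p = 6.52e-04), the 636th highest of the 16228 tested genes. Without knockdown polysome replicate 1 it was 0.92 (edgeR adjusted p = 0.234) and without replicate 2 it was 1.59 (edgeR adjusted p = 0.0221). ETV5, another PEA3-group factor, had 24.0 and 16.8 CPM with scramble against 22.6 and 22.7 CPM with knockdown in polysomal RNA (0.15 ± 0.20). Its groups overlapped, and its 2 scramble libraries were further apart than the group means. ETV1 was the least abundant of the 3 factors, at 1.68 and 3.03 CPM with scramble against 2.09 and 2.63 CPM with knockdown in polysomal RNA, from 31 to 51 counts.

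The phosphatases differed among themselves. DUSP4 had 17.0 and 17.0 CPM with scramble against 38.4 and 21.2 CPM with knockdown in polysomal RNA (log2 fold change 0.82 ± 0.23, edgeR adjusted p = 0.215, DESeq2 adjusted p = 0.0568). The groups did not overlap, but most of the difference came from knockdown polysome replicate 1, without which the log2 fold change was 0.29 (edgeR adjusted p = 0.513). Without replicate 2 it was 1.11 (edgeR adjusted p = 0.0325). DUSP6, the cytoplasmic phosphatase specific for ERK, had 23.9 and 21.4 CPM with scramble against 29.3 and 29.9 CPM with knockdown in polysomal RNA (0.39 ± 0.18, edgeR adjusted p = 0.378). Its knockdown libraries lay close together and above both scramble libraries, and its log2 fold change stayed between 0.24 and 0.45 with any 1 of the 8 libraries left out. DUSP5, a nuclear ERK phosphatase, had 17.2 and 13.4 CPM against 20.3 and 11.7 CPM, with the knockdown libraries on either side of the scramble ones.

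Of the inhibitors upstream, SPRY4 had 3.41 and 2.67 CPM with scramble against 7.02 and 3.39 CPM with knockdown in polysomal RNA, from 40 to 104 counts (log2 fold change 0.79 ± 0.34, edgeR adjusted p = 0.351). Its groups overlapped, and without knockdown polysome replicate 1 the log2 fold change was 0.12. SPRY2 had 12.6 and 11.9 CPM with scramble against 16.7 and 13.4 CPM with knockdown in polysomal RNA (0.31 ± 0.21), with no overlap, and 0.098 without that library. SPRED1 and SPRED2 overlapped between hairpins, with log2 fold changes of 0.15 ± 0.20 and 0.14 ± 0.20. In all, ETV4, DUSP4, DUSP6 and SPRY2 were higher without overlap and 0 genes were lower, where 15.5% and 18.5% of all tested genes were higher and lower in this way. Leaving out knockdown polysome replicate 1 or replicate 2 left 8 of the 10 above 0, with medians of 0.13 and 0.33. Leaving out scramble polysome replicate 1 left 9 (median 0.37) and replicate 2 left 8 (median 0.22). In these fits 38.9% to 45.6% of all tested genes lay above 0, with medians from −0.092 to 0.

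**Figure D2:**
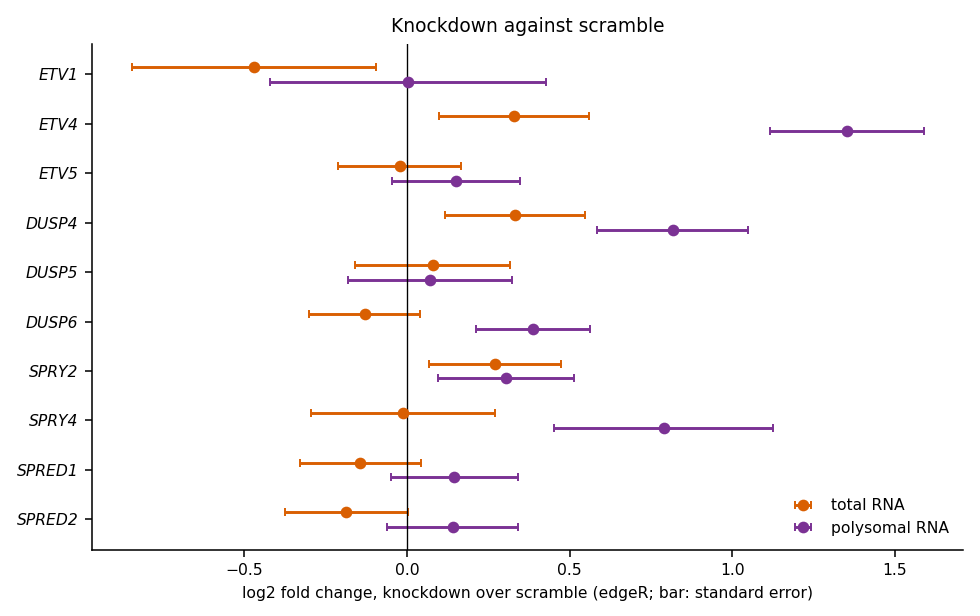
Log2 fold change of knockdown over scramble (horizontal axis, edgeR) for each gene in total RNA (orange) and polysomal RNA (purple); bars are standard errors from 2 libraries per group. In total RNA the genes lie on both sides of 0, from −0.47 to 0.33, and in polysomal RNA ETV4 at 1.35 lies furthest to the right.

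**Figure D3:**
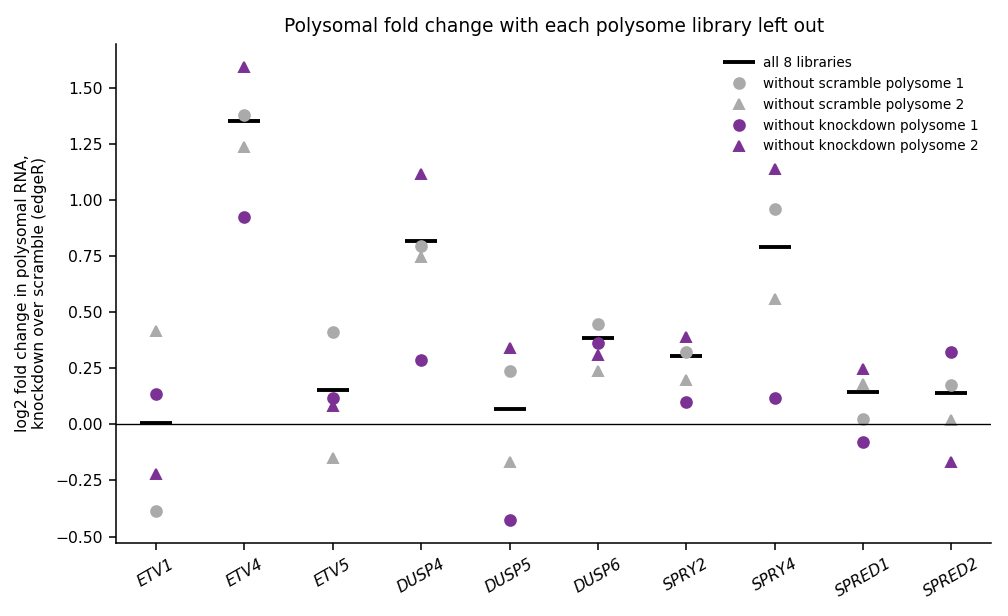
Log2 fold change in polysomal RNA (vertical axis, edgeR) for each gene with all 8 libraries (black bar) and with each polysome library left out in turn (grey for scramble, purple for knockdown, circle for replicate 1 and triangle for replicate 2). ETV4 stays above 0.9 in all of them, whereas DUSP4 and SPRY4 fall to 0.29 and 0.12 without knockdown polysome replicate 1.

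The difference between the fractions, the change in polysome-to-total ratio on knockdown, was tested as an interaction of hairpin and fraction. ETV4 had the highest value of the set, with a log2 difference of 1.02 ± 0.33 (SE), followed by SPRY4 (0.80 ± 0.44), DUSP6 (0.52 ± 0.24) and DUSP4 (0.48 ± 0.32). The values of SPRY2 and DUSP5 were 0.034 ± 0.29 and −0.0093 ± 0.35. edgeR called 0 of the 10, beside 0% of all tested genes, and DESeq2 called 0 beside 0.0246%. An unadjusted edgeR p under 0.05 was held by 1 of the 10 (ETV4, edgeR adjusted p = 0.776), beside 1018 of the 16228 tested genes. So a difference between the responses of total and polysomal RNA was not established for any of them. Without knockdown polysome replicate 1 the log2 difference of ETV4 was 0.61, that of SPRY4 0.15 and that of DUSP4 −0.028, while that of DUSP6 was 0.51.

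Position on polysomes separated the set far more than the hairpin did. DUSP4 and SPRY4 were scarce there relative to their total mRNA, SPRED2, ETV1, SPRED1 and DUSP5 were moderately low, and SPRY2, DUSP6, ETV5 and ETV4 were near 0 in scramble cells. After scaling by library totals and TMM factors, fewer mRNAs on polysomes and a different baseline between the fractions cannot be told apart. The TMM factors were 1.37 to 1.45 for total and 0.653 to 0.751 for polysome libraries. All values between the fractions are therefore positions relative to other genes. In scramble cells edgeR called 6 of the 10 lower in polysomal RNA, beside 33.7% of all tested genes, and 0 higher, beside 29.7%. The 6 were DUSP4, SPRY4, SPRED2, ETV1, SPRED1 and DUSP5. The median over the 10 was −0.76, beside −0.17 over all tested genes.

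DUSP4 fell from 102 and 96.7 CPM in scramble total to 17.0 and 17.0 CPM in scramble polysome libraries, a log2 fold change of −2.55 ± 0.23 (edgeR adjusted p = 5.02e-06). SPRY4 fell from 17.5 and 16.9 CPM to 3.41 and 2.67 CPM (−2.49 ± 0.32, edgeR adjusted p = 4.85e-05). The total and polysomal libraries of both genes were far apart, with 17.1% of the total level of DUSP4 and 17.8% of that of SPRY4 in polysomal libraries. Its relative SPRY2 had 12.2 and 12.4 CPM in total RNA of scramble cells and 12.6 and 11.9 CPM on their polysomes (−0.0079 ± 0.21), so the 2 Sprouty mRNAs lay far apart. DUSP6 (−0.15 ± 0.17) and ETV5 (−0.26 ± 0.19) did not pass the test, nor did ETV4 (0.25 ± 0.24). SPRED2 fell by 1.22 ± 0.20 on the log2 scale (edgeR adjusted p = 2.62e-04) and SPRED1 by 0.80 ± 0.19 (edgeR adjusted p = 0.00374). The calls of ETV1 (−1.24 ± 0.40, edgeR adjusted p = 0.0183) and DUSP5 (−0.72 ± 0.25, edgeR adjusted p = 0.0241) were the weakest. ETV1 lost its call without scramble total replicate 1 (edgeR adjusted p = 0.133) and scramble polysome replicate 1 (0.0807), and DUSP5 without scramble total replicate 1 (0.0689), scramble total replicate 2 (0.0762) and scramble polysome replicate 2 (0.0931). ETV5 gained one without scramble polysome replicate 1 (−0.65, edgeR adjusted p = 0.0144).

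In knockdown cells the order was similar, with ETV4 apart. On the TMM scale ETV4 had 14.5 and 13.0 CPM in knockdown total and 41.0 and 25.3 CPM in knockdown polysome libraries. The log2 fold change was 1.27 ± 0.23 (edgeR adjusted p = 6.66e-04). Before scaling these were 461 and 396 counts in total and 608 and 298 counts in polysome libraries. With each of the 8 libraries left out the log2 fold change was 0.78 (without knockdown polysome replicate 1) to 1.45. ETV4 was the only one of the set called higher, beside 28.9% of all tested genes. DUSP4 (−2.06 ± 0.23, edgeR adjusted p = 1.85e-05), SPRY4 (−1.69 ± 0.31, 6.66e-04), SPRED2 (−0.89 ± 0.20, 0.00238), DUSP5 (−0.73 ± 0.25, 0.0237) and SPRED1 (−0.51 ± 0.19, 0.0378) fell, beside 34.1% of all tested genes. The call of SPRED1 was lost without 5 of the 8 libraries (all but the scramble polysome replicates and knockdown polysome replicate 1), with edgeR adjusted p from 0.0603 to 0.108, and that of DUSP5 without knockdown total replicate 1 (edgeR adjusted p = 0.106), knockdown total replicate 2 (0.0639) or knockdown polysome replicate 2 (0.0640). Without knockdown polysome replicate 1, DUSP5 was at −1.29 and SPRED1 at −0.79. The log2 fold change of SPRY4 was −2.42 without knockdown polysome replicate 1 and −1.41 without replicate 2. That a call was made in one hairpin and not in the other does not show a difference, which the interaction above did not establish.

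**Figure D4:**
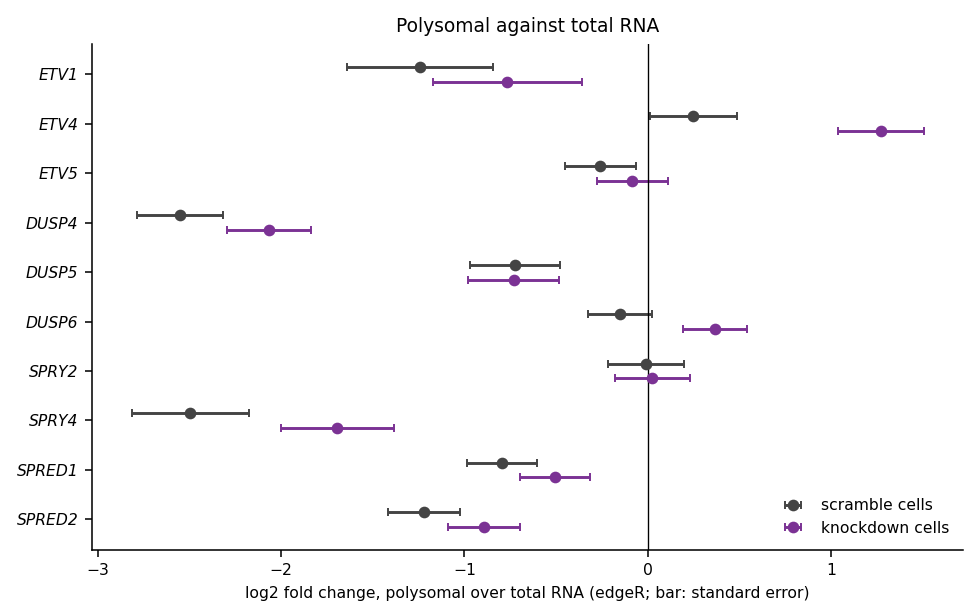
Log2 fold change of polysomal over total RNA (horizontal axis, edgeR) for each gene in scramble (grey) and knockdown cells (purple); bars are standard errors from 2 libraries per group. DUSP4 and SPRY4 lie furthest to the left under both hairpins, and ETV4 moves from 0.25 to 1.27.

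Length was set beside these positions, since across 12659 tested coding genes the polysome-to-total fold change of scramble cells fell with mRNA length (Spearman's rho −0.60) and with coding length (−0.61). These are descriptions across genes, which share the libraries. DUSP4, at 5537 nt, is longer than 80.0% of those genes. The SPRY4 transcript used for these lengths, at 2379 nt with a coding part of 900 nt, is shorter than the median of 3226 nt and 1416 nt. The SPRY4 fold change lay at the 12.0th percentile of all tested genes. All annotated SPRY4 exons together cover 6565 nt, and which transcript the cells made was not measured. The ETV4 transcript used, at 2429 nt, is close in length to that of SPRY4 (all annotated ETV4 exons cover 3607 nt), and ETV4 stood at the 58.8th percentile. SPRED1 (7780 nt) and ETV1 (6740 nt) were the longest of the set and stood at the 36.4th and 27.9th percentiles. Leaders differed widely too. DUSP6 has an annotated 5′ leader of 1232 nt with 12 AUG triplets and SPRY2 one of 978 nt with 7, against a median of 203 nt with 1, and both mRNAs had polysome-to-total values near 0. The RefSeq start window of DUSP6 shown above ends at 89352751, inside the GENCODE span that reaches 89353271. From that start the DUSP6 leader may be shorter, with fewer AUGs, and the start in use was not measured. SPRY4, DUSP4, DUSP5 and ETV5 each have 1 AUG in the leader of the transcript used, and ETV4 has 2. Across genes neither leader length nor the number of leader AUGs tracked the polysome-to-total fold change in scramble cells (rho −0.053 and −0.071) or the polysomal knockdown fold change (0.050 and 0.075). The knockdown fold change in total RNA did vary with mRNA length across genes (rho −0.38) and with the GC content of the mRNA (0.30), and the knockdown change in polysome-to-total ratio with GC content (−0.24). ETV1 and SPRED1, the longest of the set and with GC contents of 38.1% and 38.9% against a median of 49.1%, had total RNA log2 fold changes of −0.47 and −0.14. DUSP4, next in length at 5537 nt and with a GC content of 51.3%, had the highest of the set, 0.33. SPRED2, at 4097 nt and 48.7%, had −0.19. The part of length and GC content in the values of the 10 genes was not tested.

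**Figure D5:**
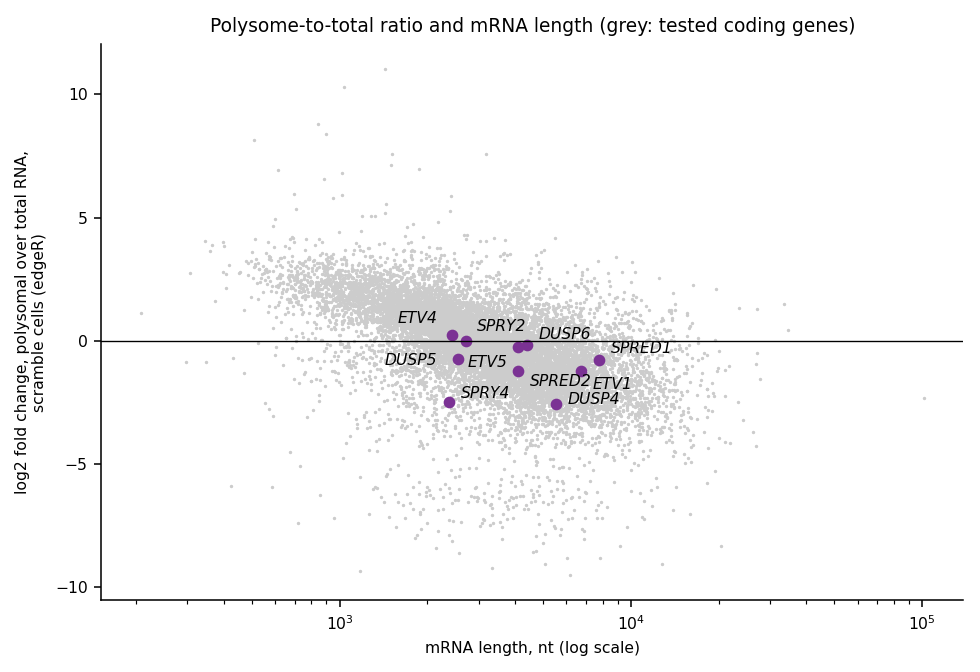
Log2 fold change of polysomal over total RNA in scramble cells (vertical axis, edgeR) against mRNA length in nt (horizontal axis, log scale) for 12659 tested coding genes (grey) and the 10 genes (purple). SPRY4 lies at −2.49, and ETV4, of nearly the same length in the transcripts used, at 0.25.

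The neighbouring genes of the pathway did not share one direction on knockdown. Of 14 further ETV, DUSP, SPRY and SPRED relatives, 11 were tested, with 7 above and 4 below 0 in polysomal RNA and a median log2 fold change of 0.10. DUSP7, a cytoplasmic ERK phosphatase like DUSP6, was called by DESeq2 (adjusted p = 0.0101) and not by edgeR (adjusted p = 0.161). It had 21.5 and 21.7 CPM with scramble against 41.5 and 32.5 CPM with knockdown in polysomal RNA, with no overlap, a log2 fold change of 0.78 ± 0.17, and values of 0.56 and 0.88 with knockdown polysome replicate 1 or 2 left out (edgeR adjusted p = 0.274 and 0.0459). In total RNA DUSP7 stood at 32.1 and 32.1 CPM against 33.5 and 33.4 CPM. DUSP1, the phosphatase that acts mainly on the stress kinases p38 and JNK, had 102.7 and 81.6 CPM against 83.9 and 68.6 CPM in polysomal RNA (−0.27 ± 0.16), with overlap.

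For the cascade itself, from the adaptor GRB2 through RAS, RAF and MEK to ERK and the RSK kinases, all 29 listed genes passed the filter and were tested. HRAS, with 9 to 628 counts per library, had the most extreme values of the list. Its log2 fold changes were −2.82 in total RNA, 1.02 in polysomal RNA and 3.84 for the polysome-to-total change, and it was not called. In polysomal RNA 15 lay above and 14 below 0 (median 0.013), and edgeR and DESeq2 each called 0. An unadjusted edgeR p under 0.05 was held by 4 of the 29, beside 2152 of the 16228 tested genes. ARAF, a RAF kinase, had 111.9 and 130.4 CPM with scramble against 172.9 and 152.9 CPM with knockdown in polysomal RNA (0.43 ± 0.14, edgeR adjusted p = 0.264). IQGAP1, a scaffold that binds RAF, MEK and ERK, had 45.6 and 34.8 CPM against 23.6 and 29.3 CPM (−0.61 ± 0.20, edgeR adjusted p = 0.261). Neither pair of groups overlapped.

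Of 27 receptors and ligands, 25 were tested, with 12 above and 12 below 0 in polysomal RNA (median 0) and 0 called by edgeR or DESeq2. An unadjusted edgeR p under 0.05 was held by 4 of the 25, beside 2152 of the 16228 tested genes. PDGFRA, the PDGF receptor alpha of fibroblasts, was near its floor, at 0.271 and 0.594 CPM with scramble against 2.16 and 1.44 CPM with knockdown in polysomal RNA (2.06 ± 0.61, edgeR adjusted p = 0.226). IGF1R, the IGF1 receptor, had 18.3 and 18.2 CPM against 14.2 and 12.4 CPM (−0.46 ± 0.16, edgeR adjusted p = 0.276).

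Of 20 further ERK output genes, 19 were tested, with 10 above and 9 below 0 in polysomal RNA (median 0.069) and 0 called by edgeR or DESeq2. An unadjusted edgeR p under 0.05 was held by 5 of the 19, beside 2152 of the 16228 tested genes. IER2, an immediate early gene, had 52.1 and 56.6 CPM with scramble against 38.3 and 35.3 CPM with knockdown in polysomal RNA (−0.56 ± 0.18, edgeR adjusted p = 0.249). In total RNA the difference had the other sign, with 22.0 and 22.0 CPM against 34.5 and 24.6 CPM (0.42 ± 0.18). The interaction for IER2 was −0.99 ± 0.26 (edgeR adjusted p = 0.776). ERRFI1, a feedback inhibitor of the EGF receptor, had 62.5 and 53.8 CPM against 77.1 and 77.2 CPM in polysomal RNA (0.41 ± 0.14, edgeR adjusted p = 0.271), with no overlap. In total RNA the 4 lists had medians of −0.12, −0.11, 0.061 and 0.11 in the order given, with 0 genes called by edgeR or DESeq2. Unadjusted edgeR p-values under 0.05 numbered 0, 2, 3 and 3, beside 598 over the 16228 tested genes.

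Genes whose libraries varied most like those of 1 member from each of 3 families were found by Pearson's r over the 8 libraries, after the mean of each fraction was subtracted from log2 CPM, among 9258 genes with a mean log2 CPM of at least 3. For ETV4 they were FBXL5 (r = 0.988), AGBL5 (0.988) and ZFAND5 (0.986), with log2 fold changes of 0.24, 0.87 and 0.43 in polysomal RNA. For DUSP6 they were PRELID3B (0.985), SSR3 (0.974) and FAM210A (0.966), at 0.22, 0.35 and 0.22. For SPRY4 they were TAF6 (0.985), the KIT ligand KITLG (0.985) and FOXM1 (0.983), at 0.48, 0.61 and 0.55. Within the set, r was 0.94 between DUSP4 and ETV4, 0.89 between DUSP4 and SPRY4, 0.89 between DUSP4 and SPRY2, and 0.82 between ETV4 and SPRY4, while ETV5 and ETV4 had 0.42 and SPRED2 and DUSP5 −0.67. With 8 libraries, 1 of which stands apart, such values describe these libraries.

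The genes lie on separate chromosomes of GRCh38 in GENCODE 29. ETV4 spans 43527844 to 43579620 on the minus strand of chromosome 17, ETV5 186046308 to 186110318 on the minus strand of chromosome 3 and ETV1 13891228 to 13991425 on the minus strand of chromosome 7. DUSP5 spans 110497838 to 110511544 on the plus strand of chromosome 10, DUSP6 89347232 to 89353271 on the minus strand of chromosome 12, SPRY2 80335976 to 80340951 on the minus strand of chromosome 13 and SPRY4 142310427 to 142326455 on the minus strand of chromosome 5. SPRED1 spans 38252326 to 38357249 on the plus strand of chromosome 15 and SPRED2 65310851 to 65432637 on the minus strand of chromosome 2. Exons of ETV4 share 68 nt with DHX8, a gene on the opposite strand with 210 to 1605 counts per library, and those of ETV5 share 164 nt with DGKG (0 to 25 counts), so a few reads could be assigned to either. SPRY4-AS1, which lies in the SPRY4 span without sharing an exon, had 7 to 36 counts.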

How the data were processed

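The authors deposited whole-number counts per gene symbol, without normalization. Per the submitters' processing notes, the tools were HISAT2 2.1.0 and Subread 2.0.1 (with featureCounts), Trimmomatic 0.36, bcl2fastq 2.19.0, R 4.1.2 and DESeq2, and the build GRCh38. The annotation, strand setting and handling of multiply mapped reads are not given in the sources used here.

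Groups and replicate numbers came from the sample titles. Genes were filtered with filterByExpr, scaled by TMM and fitted with edgeR 4.0.16 (R 4.3.3), a robust quasi-likelihood model with a mean per group over all 8 libraries (4 residual degrees of freedom). Benjamini-Hochberg adjustment ran over 16228 genes, with a threshold of 0.05. Standard errors were the log2 fold change over the square root of F. Levels are CPM after TMM scaling. A prior count of 2 went into log2 CPM. DESeq2 1.42.0 was an alternative, as were RLE scaling, no filter, a replicate block, own-fraction fits and leaving out each library. On simulated polysomal counts (15754 genes) the fit called 80% of genes raised 2-fold and 70% of those lowered to 0.5 times, with 8 false calls. These rates describe the simulated counts, and power in the real polysome libraries was not tested. The real ones had a biological coefficient of variation of 0.246, beside 0.181 over all 8 libraries. In them ETV4, raised 2.55 times, was not called (edgeR adjusted p = 0.157). The rates were not split by level, so they give no power for scarce genes such as ETV1 and SPRY4.

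Members, pathway lists and named-gene rules were chosen with earlier results of these data known. The rule named all 10 members, EIF4G2, from each pathway list any gene edgeR called on knockdown and the 2 with the smallest polysomal p, and the 3 genes most like ETV4, DUSP6 and SPRY4. Lengths and leaders are from the principal GENCODE 29 transcript. Replicates of each group differed beyond sampling noise (chi-square per degree of freedom 2.69 to 135).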

Additional observations from a re-analysis of the deposited data

How the results depend on the processing

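Each group held 2 libraries, and polysome libraries varied more (biological coefficient of variation 0.246) than total ones (0.112). DESeq2 called 26 genes in total RNA, 228 in polysomal RNA (1 member) and 4 in the polysome-to-total change, against 0, 2 (0 members) and 0 by edgeR. Without the filter edgeR called 38, 502 (2 members, ETV4 and DUSP4) and 64, and with 1 fraction fitted alone 10 in total and 3 in polysomal RNA. With 1 library left out these counts ran from 0 to 0, from 0 to 183 (members 0 to 2) and from 0 to 2, and the members called in polysomal against total RNA from 4 to 6 under either hairpin. Deviations of same-numbered libraries had r of −0.092 to 0.026 across genes. Such values cannot show whether same-numbered libraries came from 1 culture, since spread particular to a fraction could hide it, and the labels do not say. With the replicate block edgeR called 3 genes in polysomal RNA, 0 in total RNA, 0 in the polysome-to-total change, and 5 of the members in polysomal against total RNA of knockdown cells, where SPRED1 lost its call (adjusted p = 0.0534).

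Directions that turned belonged to uncalled values. With 1 library left out, log2 fold changes in total RNA ran from −0.16 to 0.12 for SPRY4 and −0.29 to 0.012 for DUSP6. In polysomal RNA they ran from −0.39 to 0.42 for ETV1, −0.15 to 0.41 for ETV5, −0.43 to 0.34 for DUSP5, −0.078 to 0.25 for SPRED1, −0.17 to 0.32 for SPRED2 and −0.025 to 0.76 for TAF6. The polysome-to-total change ran from −0.15 to 0.17 for SPRY2, −0.49 to 0.28 for DUSP5, −0.11 to 0.45 for ETV5 and −0.028 to 0.80 for DUSP4, and SPRY2 in polysomal against total RNA of knockdown cells from −0.24 to 0.13. That SPRY2 value was −0.016 by DESeq2, −0.016 with RLE scaling and −0.16 without the filter, where ETV1 in polysomal RNA was −0.037 and the SPRY2 polysome-to-total change −8.2e-04. The cause was not tested.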
